A study of Homo sapiens with 5 samples.

Results

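Binding of MYC and of the Mediator subunits MED17 and MED30 was examined at 46 genes of the cell cycle and of DNA replication, out of 20037 protein-coding genes. The genes were a fixed list, and a gene was counted for a protein if that protein's list held a peak within 1 kb of either end of the gene in the RefSeq annotation of GRCh38.p14. By role they fell into 13 genes of the G1/S transition, 12 genes of replication licensing, 9 genes of replication factors that act after licensing (called fork genes here) and 12 genes of the G2 and mitotic phases (called mitotic genes here).

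The data were chromatin immunoprecipitation sequencing (ChIP-seq) peak lists from MIA PaCa-2, a line established from a human pancreatic carcinoma. In parental cells grown in normal culture, all 3 proteins were profiled. MYC alone was also profiled in teton shMED30 cells, a derivative in which doxycycline induces a short hairpin RNA that targets MED30, both uninduced and with 3 days of doxycycline at a labelled dose of 0.5 mg/ml. No label says whether the derived line is a clone or a pool, and the uninduced hairpin line, not the parental line, is the control of the doxycycline comparison. Each of the 5 groups is 1 library, so no comparison below has a replicate check and none carries a p-value. The MED30 transcript and protein were not measured in these files, so the knockdown could not be checked.

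Entry into S phase is driven by cyclin D and cyclin E kinases, which inactivate the retinoblastoma protein and free E2F factors to transcribe replication genes. Licensing loads the MCM helicase onto replication origins with the origin recognition complex, CDC6 and CDT1, and fork factors then convert it into an active replisome. Mitotic genes are transcribed late in the cycle, and many of their promoters carry CCAAT boxes and a CHR element read by the DREAM and MuvB complexes. MYC, bound to DNA with MAX at E-boxes such as CACGTG, is known for driving growth and cell cycle entry, and Mediator links such factors to RNA polymerase II.

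The promoters on which the comparison turns are shown first. They are the 250 bases before the annotated transcription start, from RefSeq (GRCh38.p14), written in the direction of transcription, and 39 of the 46 genes had an entry. Genes without one were CDK2, CCND1, CCND2, CCNE2, MCM4, MCM5 and AURKA. The promoters of CDK4 (chr12:57752311-57752560, minus strand), MCM2 (chr3:127598161-127598410, plus strand), MCM7 (chr7:100101398-100101647, minus strand) and CCNB1 (chr5:69166900-69167149, plus strand) all held CACGTG and had a parental MYC peak over them; the capitals mark CACGTG.
CDK4: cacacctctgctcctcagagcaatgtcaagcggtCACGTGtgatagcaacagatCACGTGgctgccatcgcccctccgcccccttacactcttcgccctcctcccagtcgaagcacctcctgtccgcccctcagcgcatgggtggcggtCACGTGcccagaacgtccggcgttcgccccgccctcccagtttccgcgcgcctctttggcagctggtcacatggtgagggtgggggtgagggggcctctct
MCM2: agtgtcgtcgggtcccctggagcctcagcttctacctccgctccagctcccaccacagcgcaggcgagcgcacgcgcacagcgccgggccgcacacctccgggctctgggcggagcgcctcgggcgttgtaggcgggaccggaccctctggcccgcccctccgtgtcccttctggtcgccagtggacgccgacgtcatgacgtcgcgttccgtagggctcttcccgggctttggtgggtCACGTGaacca
MCM7: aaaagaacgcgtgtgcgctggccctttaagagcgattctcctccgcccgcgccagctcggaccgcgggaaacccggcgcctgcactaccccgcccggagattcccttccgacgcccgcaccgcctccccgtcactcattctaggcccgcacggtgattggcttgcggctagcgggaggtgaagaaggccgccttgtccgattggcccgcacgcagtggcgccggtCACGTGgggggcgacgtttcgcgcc
CCNB1: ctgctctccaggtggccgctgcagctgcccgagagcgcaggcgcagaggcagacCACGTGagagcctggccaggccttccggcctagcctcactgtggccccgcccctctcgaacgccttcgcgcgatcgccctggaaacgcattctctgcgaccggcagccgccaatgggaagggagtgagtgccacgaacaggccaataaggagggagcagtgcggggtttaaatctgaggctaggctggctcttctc

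The promoters of PLK1 (chr16:23678639-23678888, plus strand), CCNB2 (chr15:59104896-59105145, plus strand) and TOP2A (chr17:40417897-40418146, minus strand) belong to mitotic genes that had Mediator peaks and no parental MYC peak. Over the promoter itself, CCNB2 had peaks of both subunits, TOP2A of MED30 alone and PLK1 of neither. Here the capitals mark the E-box CACGTG, the CHR-type letters TTTGAA and the CCAAT box, each on either strand. They also mark E2F-type letters, which were GCGGGA, the variant with the letters GCGCGA, and the longer form spelled TTTCCCGC.
PLK1: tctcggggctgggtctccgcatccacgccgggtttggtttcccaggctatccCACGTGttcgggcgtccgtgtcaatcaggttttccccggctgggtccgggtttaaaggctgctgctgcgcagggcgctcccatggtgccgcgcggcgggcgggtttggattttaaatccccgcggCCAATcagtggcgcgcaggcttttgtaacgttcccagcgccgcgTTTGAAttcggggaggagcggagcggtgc
CCNB2: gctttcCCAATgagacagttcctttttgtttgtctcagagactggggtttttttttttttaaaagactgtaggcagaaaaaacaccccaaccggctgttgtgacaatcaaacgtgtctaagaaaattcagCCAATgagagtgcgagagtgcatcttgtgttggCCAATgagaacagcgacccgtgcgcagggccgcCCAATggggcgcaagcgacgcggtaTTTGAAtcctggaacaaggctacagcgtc
TOP2A: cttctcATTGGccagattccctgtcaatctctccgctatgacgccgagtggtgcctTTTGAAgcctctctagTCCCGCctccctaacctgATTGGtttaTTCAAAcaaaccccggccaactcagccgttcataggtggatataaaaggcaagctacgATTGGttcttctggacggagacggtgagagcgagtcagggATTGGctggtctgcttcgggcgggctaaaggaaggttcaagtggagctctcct

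There were 13172 MED17 peaks, 12040 MED30 peaks and 14331 MYC peaks in parental cells, and in the hairpin line 7158 MYC peaks uninduced and 4621 with doxycycline. Background pileup, the fragments stacked where there is no peak, was 1.60 to 2.56 in the parental libraries, 0.310 without doxycycline and 0.186 with it, so the lists from the hairpin line rest on far fewer fragments. Mediator chromatin was fixed with disuccinimidyl glutarate (2 mM, 20 min) and formaldehyde (1%, 10 min), MYC chromatin with formaldehyde alone. As a check of the label, CDKN2A, CDKN2B and MTAP, which are known to be deleted in MIA PaCa-2, had no peak in any of the 5 lists. KRT8, KRT18 and VIM had peaks of all 3 proteins in the parental lists (1 peak per protein served KRT8 and its neighbour KRT18). None of 10 marker genes of leukocytes, endothelium, fibroblasts, islet or acinar cells had a peak. Of all protein-coding genes, 47.5% had no peak in any list and 31.2% had all 3 parental proteins, so these few genes are a weak check.

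Most of the cell cycle genes carried Mediator, and fewer carried MYC. A MED17 peak was counted at 39 of 46 genes (84.8%, exact 95% interval 71.1 to 93.7%), where 47.9% of all protein-coding genes had one. A MED30 peak was counted at 38 (82.6%, 68.6 to 92.2%), against 41.7% of all genes, and a parental MYC peak at 31 (67.4%, 52.0 to 80.5%), against 39.0%. The intervals cover counting error alone and treat genes as independent. Expression was not measured in these files, and its part in these shares was not tested. With both subunits present, MYC was present at 25 of 35 cell cycle genes (71.4%), against 80.0% of the 7805 protein-coding genes with both subunits. Thus the cell cycle genes stood above all genes in each parental list, and their MYC share among genes with both subunits was the lower one; neither difference was tested. Parental MYC without a Mediator subunit was counted at 0 of the 46 genes and at 340 of 20037 protein-coding genes (1.70%).

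**Figure D1:**
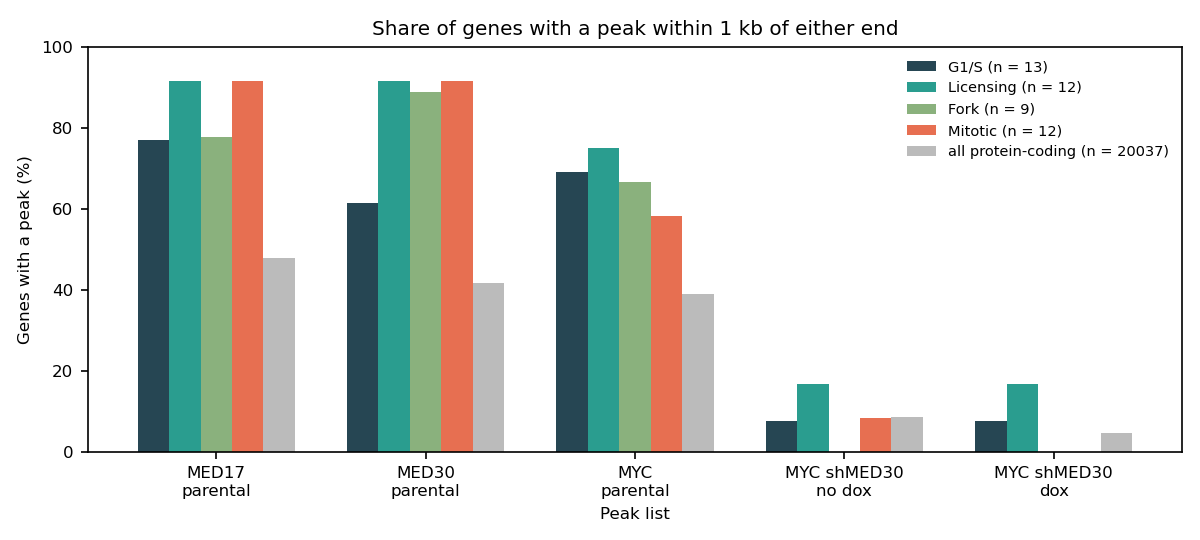
Share of genes (y axis, percent) with a peak within 1 kb of either gene end in each of the 5 peak lists (x axis), for the 4 gene groups and for all protein-coding genes (grey). In the parental lists every group lies above the grey bar, and in the parental MYC list the licensing group is the highest (75.0%) and the mitotic group the lowest (58.3%).

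The groups are given by which proteins were counted together. Licensing genes had both subunits at 11 of 12 genes and all 3 proteins at 9. Fork genes had both subunits at 7 of 9 and all 3 proteins at 5. Mitotic genes had both subunits at 10 of 12 but all 3 proteins at 6, and 4 of 12 had both subunits without MYC. G1/S genes had both subunits at 7 of 13 and all 3 proteins at 5, and 4 of 13 had MYC with a single subunit. Over all protein-coding genes, 39.0% had both subunits, 31.2% had all 3 proteins, 7.80% had both subunits without MYC and 6.14% had MYC with a single subunit. With 9 to 13 genes a group and 1 library a protein, these counts are descriptions.

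**Figure D2:**
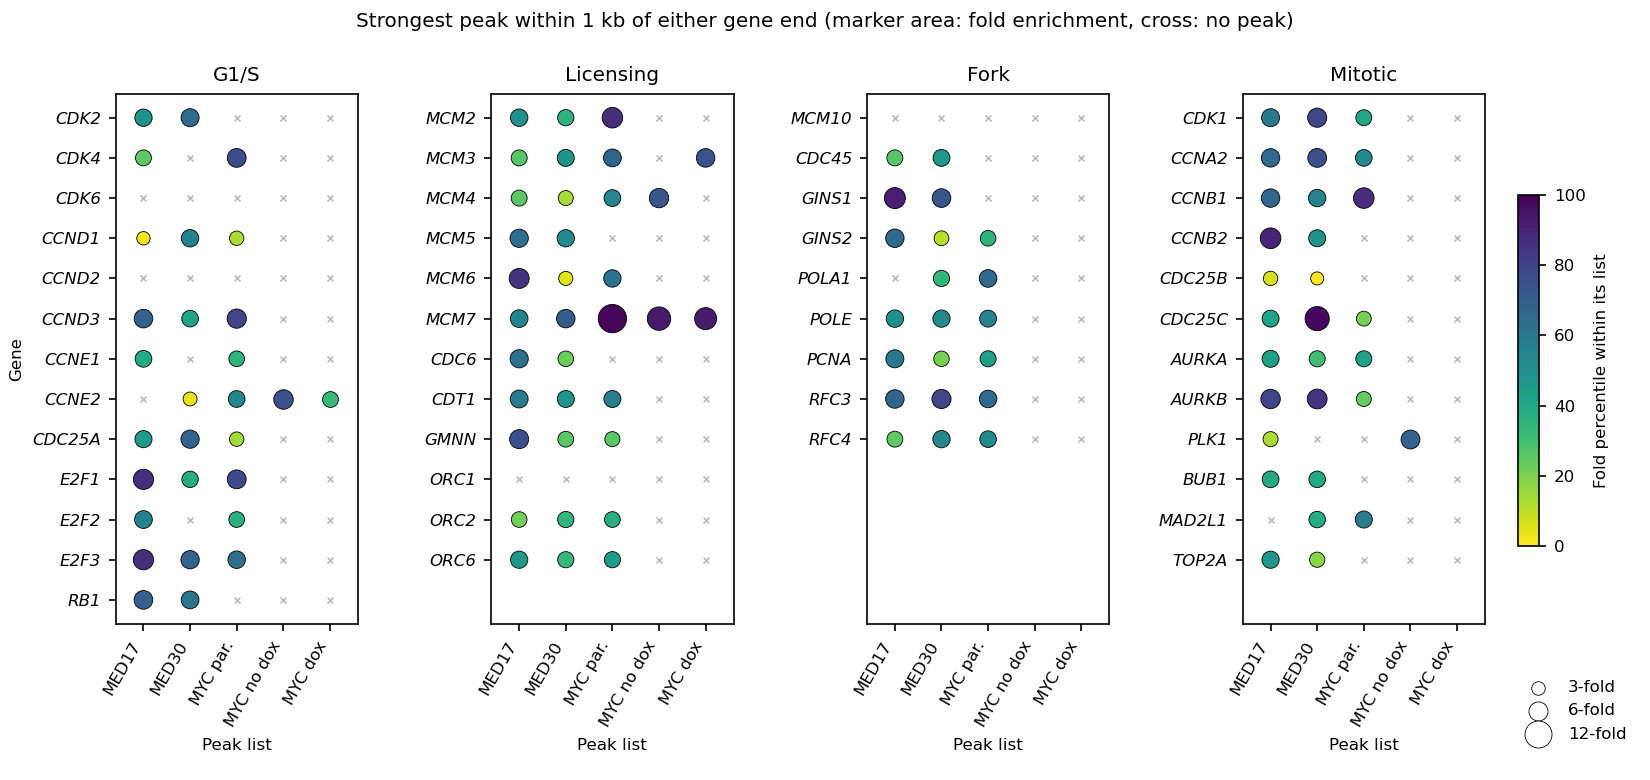
Strongest peak of each of the 46 genes (rows, by group) in the 5 lists (columns). Marker area is the authors' fold enrichment, colour its percentile within its own list, and a cross means no peak within 1 kb of either gene end; MCM7 is the gene with large markers in all 3 MYC lists (folds 13.2, 9.01 and 7.97).

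Peak strength at these genes lay close to the middle of each list. Fold enrichment is the authors' ratio of fragments at the summit to local background, and a percentile gives its rank among all peaks of the same list. The strongest MYC peak per gene had a median fold of 4.60 (range 3.39 to 13.2, 31 genes), against 4.68 over all 7813 genes with a parental MYC peak. For MED17 the medians were 5.13 and 5.19, and for MED30 4.73 and 5.05. A single gene in each parental list reached the top 10% of its list, GINS1 for MED17, CDC25C for MED30 and MCM7 for MYC, where 9.84% to 9.91% of all bound genes did.

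The strongest MYC peak of the 46 genes lay at a licensing gene. MCM7, a subunit of the replicative helicase, had a parental MYC peak of fold 13.2 (percentile 98.98, 155 fragments at the summit over a local background of 10.8) at chr7:100100229-100101016, inside the gene, with its summit 792 bp past the start. A second and weak MYC peak (fold 2.26, percentile 0.537) covered the start itself, where CACGTG lies 25 bases before it. The MED30 peak at MCM7 was 2095 bp wide (fold 5.62) and contained both MYC summits, and MED17 had a peak of fold 5.13 before the start and one of 3.92 inside the gene. The strong MYC summit is therefore outside the promoter sequence shown above. MCM7 shares this region with the neighbouring gene AP4M1, so the peaks cannot be assigned to either gene alone.

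The other MCM subunit genes had MYC at moderate levels or not at all. MCM2 had a MYC fold of 6.95 (percentile 87.4) with its summit 69 bp past the start, near the CACGTG that lies 11 bases before it, and MED17 and MED30 folds of 4.97 and 4.37. MCM3 had folds of 4.21 for MED17, 4.76 for MED30 and 5.21 for MYC, and MCM6 had 6.58, 3.28 and 4.96. MCM4 had 2 MYC peaks (4.65 and 4.61), one reaching the gene's lower end and one below it, toward PRKDC. MCM5 had MED17 (5.50) and MED30 (4.90) and no parental MYC peak within 1 kb; the nearest lay 23 kb away.

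The loading factors were split in the same way. CDT1, which brings the MCM ring to origins, had folds of 5.26 for MED17, 4.75 for MED30 and 4.76 for MYC, and its inhibitor GMNN (geminin) had 5.98, 4.10 and 3.75. ORC2 and ORC6, subunits of the origin recognition complex, had all 3 proteins, with MYC folds of 4.09 and 4.33. At ORC6 the MYC summit lay 877 bp before the start, toward VPS35, and a weaker MYC peak (3.02) lay inside the gene. Neither ORC6 MYC peak covered its promoter. CDC6, the ATPase that works with the complex, had MED17 (5.44) and MED30 (3.99) without MYC. ORC1 was counted with no peak, but its RefSeq promoter lies 5.08 kb inside the annotated gene end, and peaks of MED17 (5.47), MED30 (4.78) and MYC (3.39) covered that promoter. ORC1 was 1 of 4 genes counted with no peak in any list (8.70%, against 47.5% of all protein-coding genes), with MCM10, CDK6 and CCND2.

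Fork genes had MYC folds between 4.03 and 5.12. POLA1, the catalytic subunit of the primase polymerase, had the highest (5.12) together with MED30 (4.34) and without MED17. RFC3 and RFC4, subunits of the clamp loader, had MYC folds of 5.07 and 4.52, POLE, the leading strand polymerase, 4.70, PCNA, the sliding clamp, 4.24, and GINS2, a helicase cofactor, 4.03. At POLE and PCNA the MYC summit lay 690 and 491 bp before the start, toward the neighbours PXMP2 and CDS2, while the MED30 summit lay 113 and 27 bp before it. CDC45 and GINS1, which join the MCM ring to form the active helicase, had both subunits without MYC. GINS1 carried the highest MED17 fold of all 46 genes, 7.27 (percentile 91.6), and a MED30 fold of 5.73. MCM10 had no peak in any list, and the nearest parental peak of any of the 3 proteins was 60.9 kb away.

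Among G1/S genes the cyclin D and E2F genes were bound unevenly. CCND3, which encodes cyclin D3, had the highest MYC fold (6.08, percentile 80.0) with its summit 340 bp before the RefSeq start. Its counted MED17 and MED30 peaks (5.71 and 4.55) had summits 1963 and 1866 bp before that start, near TAF8. A weaker MED17 peak (3.85), outside the 1 kb window, covered the RefSeq promoter and overlapped the MYC peak. CCND1 had weak MED17 (2.95) and MYC (3.39) peaks and a MED30 peak of 4.99 over its lower end. CCND2 had no peak within 1 kb in any list, and the nearest MED17, MED30 and parental MYC peaks lay 15.1 to 15.3 kb from the gene. CDK4, the kinase partner of cyclin D, had MYC at 5.81 (percentile 76.9, chr12:57751770-57752524) and MED17 at 4.17 without MED30, and its MYC summit lay 49 bp before the start. Its promoter held CACGTG at 216, 196 and 101 bases before the start, more copies than any other of the 39 promoters. CDK6, the other partner, had no peak at either end, although its promoter held CACGTG 31 bases past the start; 1 parental MYC peak of fold 3.38 lay inside the gene.

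Cyclin E and its regulators followed. CCNE1 had MED17 (4.62) and MYC (4.03) without MED30, and CCNE2 had MED30 (3.20) and MYC (4.60) without MED17. CDK2, their kinase, had MED17 (4.95) and MED30 (5.36) without MYC. CDC25A, the phosphatase that activates CDK2, had 4.82, 5.46 and 3.43 for MED17, MED30 and MYC. RB1, the retinoblastoma gene, had MED17 (5.74) and MED30 (5.21) at its lower end without MYC there. A MYC peak of fold 10.1 in the doxycycline list (chr13:48427154-48427596) lay inside RB1, 54.3 kb from the nearer gene end and so outside the window, where neither other MYC list had a peak over the gene.

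The E2F genes, whose products transcribe S phase genes, differed in where their peaks lay. E2F3 had MYC at 5.03 with its summit 1576 bp past the start, next to strong MED17 (6.73) and MED30 (5.49) summits at 1249 and 1529 bp. E2F2 had MYC (4.06) and MED17 (5.18) summits 44 and 41 bp past the start. E2F1 was counted with all 3 proteins, but its MYC peak (5.86), its MED30 peak (4.45) and its stronger MED17 peak (6.71) lay beyond the far end of the gene, with summits 11983 to 12209 bp from the start and near NECAB3. At the E2F1 start itself there was a MED17 peak (5.19) alone.

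Of the 12 mitotic genes, 7 had Mediator with parental MYC and 5 had Mediator without it. CCNB2, which encodes cyclin B2, had a MED17 fold of 7.04 (percentile 89.8) and a MED30 fold of 4.76, and the nearest parental MYC peak was 171 kb away. TOP2A, a topoisomerase that untangles chromosomes, had 4.88 and 3.83, and BUB1, a kinase of the spindle checkpoint, 4.62 and 4.51, again without MYC. CDC25B, a phosphatase that activates CDK1, was counted with both subunits from weak peaks at opposite ends of the gene (MED17 3.41, MED30 2.79). PLK1, a kinase needed for mitotic entry and spindle formation, had a MED17 peak of 3.73 and neither MED30 nor parental MYC within 1 kb. Mediator without parental MYC was counted at 2 of 13 G1/S, 2 of 12 licensing and 2 of 9 fork genes and at 13.3% of all protein-coding genes, and the difference between the groups was not tested. A parental MYC peak lay 1.56 kb past CDC25B, just outside the window.

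The remaining mitotic genes had MYC, with folds from 3.64 to 6.95. CCNB1, which encodes cyclin B1, had the highest MYC fold of the group, 6.95 (percentile 87.4, chr5:69166737-69167466) and its summit 149 bp before the start, in the promoter with CACGTG at 196 bases before it. CDK1, the mitotic kinase, had 5.30, 6.0 and 4.19 for MED17, MED30 and MYC, and CCNA2 (cyclin A2) 5.54, 5.81 and 4.57. CDC25C had the highest MED30 fold of the 46 genes, 9.62 (percentile 97.9), with its summit 116 bp past the start and FAM53C as a neighbour, beside a MYC fold of 3.64 (percentile 20.8). AURKB and AURKA, the Aurora kinases, had MYC folds of 3.70 and 4.23, the latter peak lying 54 bp outside the gene toward CSTF1. MAD2L1, a spindle checkpoint protein, had MED30 (4.48) and MYC (4.79) without MED17.

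The distance from summit to transcription start is given as a description, since the 1 kb rule itself keeps most counted peaks near a gene end. Among genes with a RefSeq start, the strongest MYC summit lay within 1 kb of it for 25 of 27 genes, at a median distance of 233 bp, and the exceptions were E2F1 and E2F3. The median distance was 152 bp for MED30 (32 genes) and 324 bp for MED17 (34 genes). RB1 is included at 173 kb for both subunits, because its RefSeq promoter entry lies inside the gene. Where both had a peak, the nearest MYC and MED30 summits were a median of 216 bp apart (28 genes), MYC and MED17 299 bp (28 genes) and MED17 and MED30 268 bp (35 genes).

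**Figure D3:**
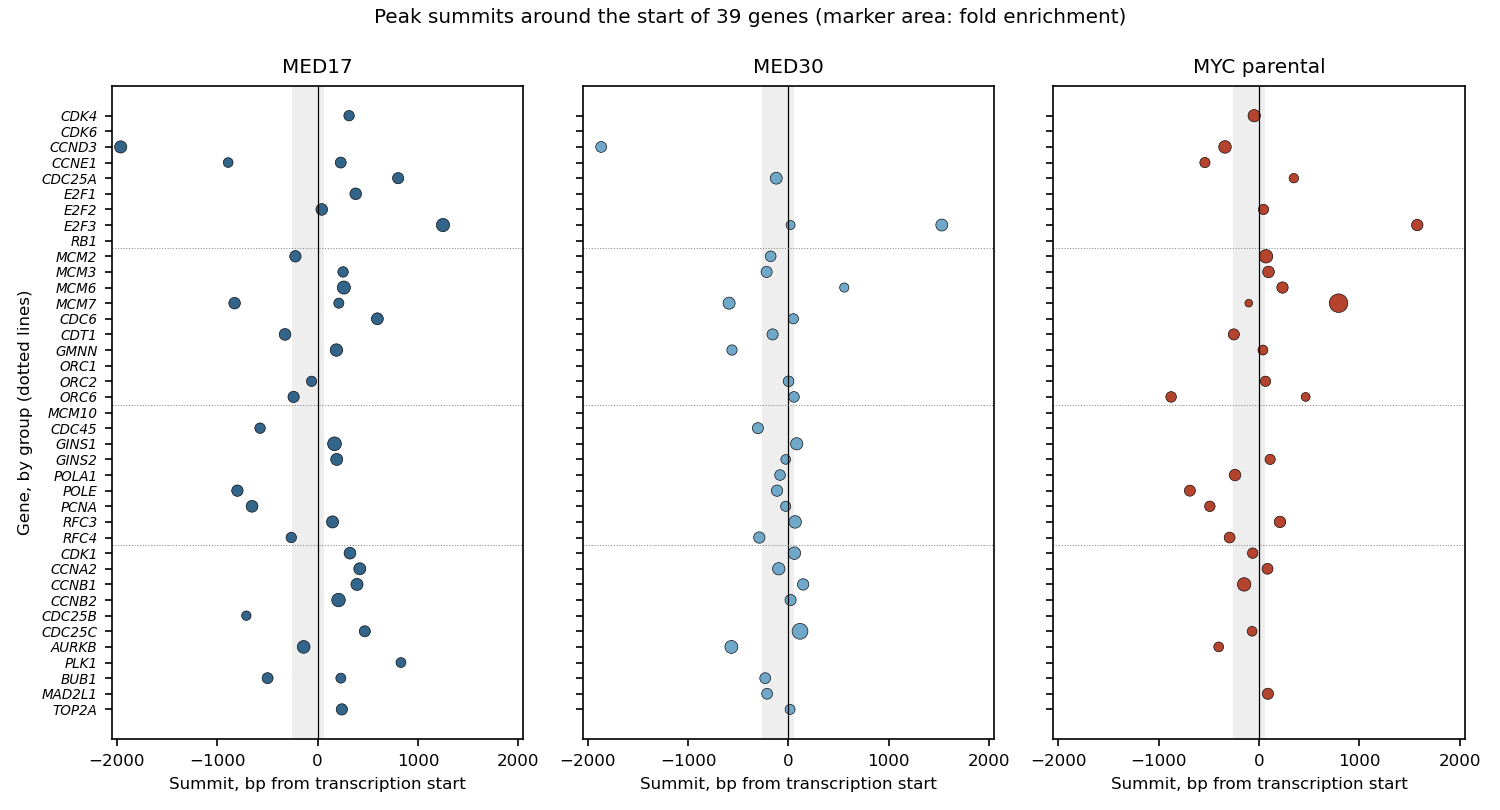
Summits of MED17, MED30 and parental MYC peaks (x axis, bp from the RefSeq start, negative before it) for the 39 genes with a start (y axis, groups separated by dotted lines); marker area is fold and the grey band is the 300-base promoter window. Peaks within 1 kb of a gene end and 2 kb of the start are drawn. ORC1, RB1, the far-end peaks of E2F1 and the far-end MED30 peak of CDC25B are therefore missing. The largest MYC marker is MCM7, 792 bp past its start.

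The promoters were searched for the 4 kinds of recognition letters on both strands in the full 300-base window (250 before to 50 after the start). CACGTG was present in 7 of 39 promoters (17.9%; MCM2, MCM7, GMNN, CDK4, CDK6, CCNB1 and PLK1), against 8.88% of 15842 protein-coding promoters. A parental MYC peak lay over 5 of these 7, the exceptions being CDK6 and PLK1. Over all promoters with CACGTG, 763 of 1407 had a parental MYC peak, and 23 of the 39 cell cycle promoters (59.0%) had one whatever their letters. The share of 5 of 7 is above both but rests on 7 promoters, and the difference was not tested. Among all promoters under a parental MYC peak 14.3% held CACGTG, against 4.16% of those with both subunits and no MYC. The median C+G content of these sets was 67.3% and 63.3%, and its part in the difference was not tested. CCAAT was present in 26 of 39 (66.7%, against 36.4% of all): 9 of 11 mitotic, 7 of 9 fork, 7 of 10 licensing and 3 of 9 G1/S promoters. TTTGAA was present in 6 of 39 (15.4%, against 12.1%), of which 5 were mitotic: CDK1, CCNB2, PLK1, MAD2L1 and TOP2A. E2F-type letters were present in 28 of 39 (71.8%, against 44.0%): 9 of 10 licensing, 7 of 9 fork, 7 of 11 mitotic and 5 of 9 G1/S promoters. GCGGGA lies within TTTCCCGC read on the other strand, so these matches overlap. The 9 G1/S promoters include that of RB1, whose entry lies inside the gene and held none of the 4 kinds of letters. Of the mitotic genes with TTTGAA, CCNB2, PLK1 and TOP2A had no parental MYC peak, while CDK1 and MAD2L1 did. A match is a description of the letters and not evidence of binding.

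In the hairpin line few of the genes had a MYC peak. Without doxycycline 4 of 46 did (8.70%, exact 95% interval 2.42 to 20.8%), beside 8.55% of all protein-coding genes, and with doxycycline 3 did (6.52%, 1.37 to 17.9%), against 4.71%. Of the 31 genes with a parental MYC peak, 4 overlapped a MYC peak without doxycycline (12.9%), against 21.0% of all genes with a parental peak. Those 4 were MCM7, MCM4, CCNE2 and CCND3; at CCND3 the overlapping peak (fold 4.23) lay 1011 bp from the gene end and so just outside the window. Over the promoter window itself, a MYC peak lay at 2 of 39 genes without doxycycline (CCND3 and PLK1, against 5.33% of all promoters) and at 0 with it (against 2.81%). The part of the lower depth in these counts was not tested.

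Presence in the hairpin line went with parental strength. Over all genes, 4.60% of those with a strongest parental MYC fold under 4 had a peak without doxycycline, 13.6% of those from 4 to 6, 45.8% of those from 6 to 8 and 78.2% of those of 8 or more. Of the cell cycle genes, 5 were under 4, 22 from 4 to 6, 3 from 6 to 8 and 1 above 8. The numbers with a peak without doxycycline were 0, 2, 0 and 1. CCND3 (parental fold 6.08), in the class from 6 to 8, was not counted because its overlapping peak lay just outside the window. Over all 7813 genes with a parental MYC peak the same classes held 2151, 3854, 1252 and 556 genes. Absence of a peak in the hairpin line means that none was detected at this depth.

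**Figure D4:**
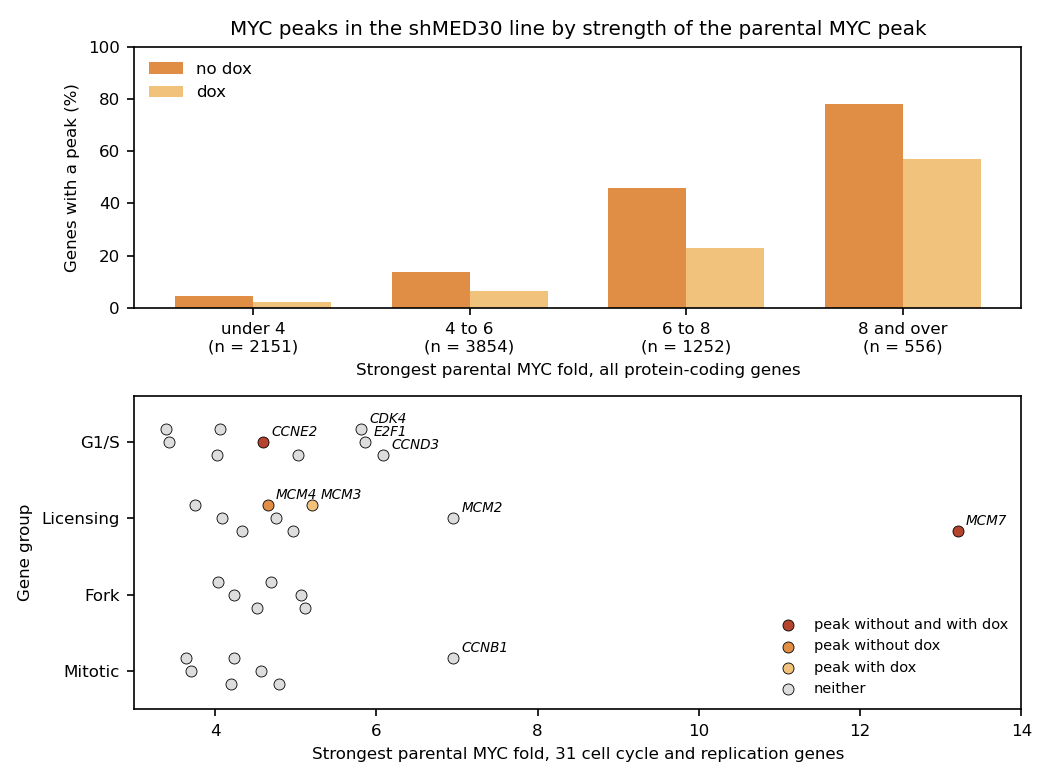
Top, share of all protein-coding genes (y axis, percent) with a MYC peak in the hairpin line without (darker bars) and with (lighter bars) doxycycline, by strongest parental MYC fold (x axis). Bottom, parental MYC fold (x axis) of the 31 cell cycle and replication genes with a parental peak, by group (y axis), coloured by peaks in the hairpin line; MCM7 at 13.2 lies far from the rest, which are at 6.95 or below.

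With induction of the hairpin, 2 of 4 genes kept their MYC peak, where 33.5% of all 1713 genes with a peak did. MCM7 kept it: fold 9.01 (percentile 93.1, 16 fragments at the summit) at chr7:100100471-100100823 without doxycycline, and 7.97 (percentile 92.7, 12 fragments) at chr7:100100476-100100681 with it. Both summits lay inside the strong parental peak, at 783 and 815 bp past the start. CCNE2 kept a peak as well, of fold 6.26 (percentile 75.4, 8 fragments) without and 4.11 (percentile 32.6, 4 fragments) with doxycycline. Every CCNE2 peak, the parental ones included, also lay within 1 kb of an end of NDUFAF6, so none can be assigned to CCNE2 alone. Percentiles come from lists of different length and show no change between them.

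MCM4 and PLK1 had a peak without doxycycline and none with it. The MCM4 peak (6.17, 9 fragments) lay 655 bp below the gene, toward PRKDC, and overlapped a parental peak. The PLK1 peak (5.87, percentile 69.5, 7 fragments, chr16:23678436-23678801) had its summit 240 bp before the start, in the promoter with CACGTG at 198 bases before it, and had no parental MYC peak within 37.4 kb. Within 1 kb of the gene ends, PLK1 was the 1 gene of the 46 with MYC in the hairpin line and not in the parental line. Over all protein-coding genes, 1632 of 1713 with a peak without doxycycline and 906 of 943 with it also had a parental MYC peak. The neighbour DCTN5 shares the region of the PLK1 peak. Within the same window, MCM3 was the 1 gene with a peak with doxycycline (5.66, percentile 74.4, 6 fragments, chr6:52284370-52284572) and none without, and this peak overlapped the parental MYC peak; 39.6% of the 943 genes with a doxycycline peak likewise had no overlapping peak without it. These 3 summits rest on 6 to 9 fragments each, and the background pileup with doxycycline was 0.599 times that without, so these are differences between 2 libraries at low depth.

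Inside PCNA, 4.73 kb from a gene end, lay a MYC peak of fold 4.08 without doxycycline. The 1 kb rule also left out MYC peaks in the hairpin line at 2.20 kb (fold 9.25 without doxycycline) and 2.12 kb (6.71 with it) past CDT1, and the parental MYC peak past CDC25B (5.15). Just inside it were the MED30 peak at CCNE2 (833 bp from the gene end) and the MYC peak below E2F1 (853 bp).

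A further 76 genes of the same processes, chosen by role, were counted in the same way. MED17 was at 68 (89.5%, against 47.9% of all protein-coding genes), MED30 at 60 (78.9%, against 41.7%) and parental MYC at 49 (64.5%, against 39.0%). All 3 were at 38, against 31.2% of all genes, and both subunits without MYC at 19, against 7.80%. RPA3, ESPL1, CENPE and CDKN1A had no peak in any list (5.26%, against 47.5% of all protein-coding genes). The highest parental MYC folds were at POLD2 (10.7), a subunit of the lagging strand polymerase, POLE4 (9.13) and POLE3 (7.63), accessory subunits of the leading strand polymerase, DBF4 (9.02), the activator of the kinase CDC7, and CDC16 (6.66), a subunit of the anaphase promoting complex. In the hairpin line 8 genes had a MYC peak without doxycycline (10.5%, against 8.55%) and 8 with it (10.5%, against 4.71%). POLD2 was the 1 gene of the 8 that kept an overlapping peak (7.56 and 7.78), which is 12.5%, against 33.5% of all genes. POLE4 had peaks under both conditions (5.48 and 5.58) that did not overlap. Peaks without doxycycline were also counted at MCMBP (6.13), CLSPN (4.63, at its far end), E2F6 (5.21), TFDP2 (6.25), BIRC5 (5.52) and CDC27 (7.45), and with it at POLE2 (4.74), POLE3 (6.04), WDHD1 (5.06), E2F5 (6.84), DTL (4.85) and CDKN2C (6.36). Each of the 14 genes with a peak in the hairpin line also had a parental MYC peak, as did 1632 of all 1713 genes with a peak without doxycycline and 906 of all 943 with it.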

How the data were processed

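Peak lists of 5 ChIP-seq libraries, 1 per group, were used as the authors deposited them. Per the submitters' processing notes, the tools were MACS2, Bowtie2, deepTools and Trim Galore, on hg38; for their versions and any input control, the entry is: not given in the sources used here. Peaks were called per library, so no peak has a replicate. Each deposited line gives, as the authors' caller wrote it, a fold (summit over local background), a −log10 value for p and another for q, and a score that is the −log10 q scaled to a whole number. Folds served to rank or filter peaks of the same library, never to compare libraries. The parental lists start at a q of 0.05 and those of the hairpin line at 0.1.

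Gene ends came from the RefSeq table of GRCh38.p14, and starts and promoter sequences from its promoter table, which held 15842 of 20037 protein-coding genes. Overlap means at least 1 shared bp. Summit pileup and background were recovered by matching fold as (pileup + 1)/(background + 1) and p as a Poisson tail, within 0.002 log10 units for 99.6% to 99.9% of peaks; the code was tested on simulated data. Python 3.11.15, pandas 2.3.3 and SciPy 1.17.1 were used.

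The members and lists were chosen with earlier results of these data known. Named with values are the 5 members per group with the highest parental MYC fold, every member with a peak in the hairpin line, with Mediator and no parental MYC, or with no peak, and by the same rule genes of the further list; other members were added to account for all 46. Alternatives changed the window, the peak threshold and the definition of overlap.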

Additional observations from a re-analysis of the deposited data

How the results depend on the processing

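Of 39 recomputed counts, 31 stayed within 1.5 times the reported one, under 500 bp or 2 kb windows, starts alone, q of 0.01 or 0.05, other definitions of overlap, and the upper 50% of each list by fold. The upper 50% by fold left 20 genes with MED17, 16 with MED30, 18 with parental MYC, 5 with all 3 and 1 that kept MYC with doxycycline (MCM7). For MED17, MED30 and parental MYC this is 51.3%, 42.1% and 58.1% of the counted genes. Of all protein-coding genes with such a peak, 56.9%, 57.8% and 56.0% were left. For the other 2 counts no share over all genes was computed. A 500 bp window left 2 genes with MYC without doxycycline (CCNE2 and PLK1). A reciprocal overlap of at least 50% left 1 gene that kept MYC with doxycycline and 2 of the parental MYC genes with a peak without it. Each of these settings is stricter by construction: fewer peaks, a narrower window or a stricter overlap. With the 3 peaks required to share 1 bp, 22 of the 25 genes with all 3 proteins were counted. No paired analysis was possible because each group is 1 library. Leaving out a replicate was likewise not possible. The lists of the hairpin line have the lower background pileup, and the effect of depth on their counts was not tested.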
